A study of Homo sapiens with 18 samples.

Results

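The genes of the mitochondrial ribosome were taken as all genes in the deposited expression table whose symbol is MRPL or MRPS, a number and at most a single letter from A to C, at any of the 3 time points. This rule gave 77 of the 21944 listed genes, 48 of the large subunit (MRPL) and 29 of the small subunit (MRPS). All 77 were protein-coding genes with a MANE Select transcript, the reference transcript agreed between RefSeq and Ensembl. The table listed 76 of them at 3 h, 77 at 6 h and 76 at 24 h, and the exception was MRPS24, which was listed at 6 h only.

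The data were bulk RNA sequencing of polyadenylated RNA from human pancreatic progenitors, derived from an embryonic stem cell line and differentiated for 19 days. The labels name the line HUES4 and the growth protocol names SA121-derived NGN3-GFP cells, a reporter line for the endocrine gene NGN3, and these entries differ; the paper describes the sequenced cells as derived from NGN3-GFP. Cells were detached and reseeded on laminin-411 (LN411) or fibronectin (FN), which are proteins of the extracellular matrix, and the study asked how the matrix changes gene expression over time. The 18 samples formed 6 groups of 3, with LN411 at 3, 6 and 24 h and FN at 3, 6 and 24 h. The paper calls the samples of a group biological replicates.

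The value available for each gene was the authors' mean normalized count, a single mean over all 18 samples that pools both matrices and all 3 times. Values per sample were not analysed here, so no level carries a spread, no difference was tested, and LN411 was not compared with FN. For the same reason neighbours in the order of levels cannot be said to differ. Levels of different genes are given per kilobase (kb), that is, the mean normalized count divided by the length of the MANE Select transcript. In bulk RNA, fewer cells that express a gene and less RNA per cell cannot be told apart.

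Mitochondria carry their own ribosome, which translates the few membrane proteins of oxidative phosphorylation that mitochondrial DNA encodes. Every protein of this ribosome is encoded in the nucleus, made in the cytosol and imported. The small subunit binds the mRNA and decodes it, the large subunit joins the amino acids, and both hold proteins with bacterial relatives beside proteins that arose within the mitochondrial lineage.

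The labelled cell type was checked on markers. The pancreatic progenitor genes had 5259 (SOX9), 4969 (PDX1), 2146 (FOXA2), 1437 (GATA6) and 875 (NKX6-1) mean normalized counts per kb. The pluripotency genes POU5F1 and NANOG were not listed. Among markers of other cell types, the endothelial genes PECAM1 and CDH5 had 11.01 and 1.26 per kb and the mesenchymal gene PDGFRB had 19.96. COL1A1, a collagen gene of mesenchymal cells, had 692 per kb, and the liver genes APOA2 and ALB had 8436 and 280. The progenitor markers were thus present together with transcripts of some liver and mesenchymal markers, and the part of other cells in the levels given here was not tested.

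The promoters of the highest and lowest gene of each subunit are shown because the letters at the gene starts differed among members. Each stretch runs from 124 to 5 bases before the RefSeq gene start (GRCh38), 5′ to 3′ on the gene's strand. Capitals mark the letters CCGGAAG or their reverse complement, a core bound by ETS-family factors. The 4 stretches lie at chr12:6493267-6493386 (MRPL51, minus strand), chr17:75904889-75905008 (MRPL38, minus strand), chr1:150293737-150293856 (MRPS21, plus strand) and chr7:43869522-43869641 (MRPS24, minus strand). In these 4 genes the RefSeq start is that of the MANE Select transcript, and other GENCODE transcripts begin up to 579 bases further upstream in MRPL51, 376 in MRPS24 and 209 in MRPL38, so the stretches of these genes lie inside the gene spans.
MRPL51: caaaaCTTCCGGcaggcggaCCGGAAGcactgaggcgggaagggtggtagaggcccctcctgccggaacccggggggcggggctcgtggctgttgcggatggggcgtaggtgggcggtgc
MRPL38: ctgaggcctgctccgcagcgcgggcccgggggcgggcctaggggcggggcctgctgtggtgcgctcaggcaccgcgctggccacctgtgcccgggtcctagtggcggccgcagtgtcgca
MRPS21: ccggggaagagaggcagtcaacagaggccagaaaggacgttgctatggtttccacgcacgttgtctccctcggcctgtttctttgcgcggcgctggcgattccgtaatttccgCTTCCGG
MRPS24: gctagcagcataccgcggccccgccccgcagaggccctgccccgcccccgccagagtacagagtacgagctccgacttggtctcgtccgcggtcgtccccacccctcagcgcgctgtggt

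The highest gene of each subunit carries the ETS letters in this stretch, MRPL51 at 2 places and MRPS21 at 1, and the lowest genes MRPL38 and MRPS24 do not. MRPL38 holds them once further out, with the first base at position -208 from its start. The letters did not separate high from low members in general: MRPS12, the second lowest small subunit gene, holds them at position -5, and MRPL41, the third highest member, has none in its window.

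Motifs were then counted in the whole promoter window, 250 bases before to 50 after the RefSeq start, which was at hand for 68 of the 77 genes. MRPL2, MRPL10, MRPL13, MRPL15, MRPL21, MRPL23, MRPL35, MRPS28 and MRPS36 had no window. The ETS letters CCGGAAG, searched on both strands like all motifs here, stood in 28 of 68 windows (41.2%). The share was 17% of the 12200 windows of listed protein-coding genes and 10.7% of all 27305 windows. Of the 37 ETS sites, 31 began between 100 bases before and 50 after the start. Large subunit genes held them in 16 of 41 windows (39.0%) and small subunit genes in 12 of 27 (44.4%), so the share was similar in both subunits.

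The letters of the YY1 site, spelled out in capitals in the sequences printed for it, stood in 10 of 68 windows (14.7%), against 1.75% of listed protein-coding genes and 0.916% of all windows. In 9 of the 10 genes the site lay after the gene start, on the gene's own strand, with its ATG at an annotated start codon. The letters thus coincide with the beginning of the coding sequence in those 9 genes, and MRPL36, where they begin at position -38 on the other strand, was the exception. No YY1 site overlapped an ETS site in these genes. The 10 sites are shown with up to 8 bases on each side, in the direction of the motif, with the motif in capitals. They lie at chr5:154941100-154941122 (plus), chr5:1799857-1799883 (plus), chr17:75904860-75904886 (minus), chr15:88467362-88467388 (minus), chr9:101398577-101398603 (minus), chr6:42217834-42217860 (minus), chr6:43687764-43687790 (minus), chr6:30617855-30617881 (plus), chr7:43869480-43869506 (minus) and chr5:44808952-44808978 (plus), in the order printed.
MRPL22: gagggcgaAAGATGGCGGCggca
MRPL36: caggaaggAAGATGGCGGCgggggggg
MRPL38: ccggagggAAGATGGCGGCgccctggt
MRPL46: gagaacgaAAGATGGCGGCgcccgtaa
MRPL50: tctcatcgAAGATGGCGGCgcgatctg
MRPS10: ggaccggcAAGATGGCGGCgcggacag
MRPS18A: ggtttttgAAGATGGCGGCcctcaagg
MRPS18B: cgtacgtcAAGATGGCGGCgtctgtat
MRPS24: cttggcccAAGATGGCGGCctccgtgt
MRPS30: cgcgggcaAAGATGGCGGCggccaggt

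The 10 genes with the YY1 letters had a median of 521 mean normalized counts per kb, and the 58 windows without them belonged to genes with a median of 1236. The direction was the other way over all listed protein-coding genes, with medians of 789 per kb with the letters and 331 without. Among the 10 genes, MRPL38, MRPS24, MRPL46 and MRPS18A lie to 94.3%, 90.9%, 73.4% and 60.6% inside exons of other genes. At least 25% was reached by 16 of the 77 members. What part this overlap has in the median of the 10 was not tested. For the ETS letters the medians were 1483 per kb with and 967 without among the members, and 562 with and 295 without among listed protein-coding genes. The subunits differed in this order, with 1999 with and 991 without in the large subunit, and 777 with and 873 without in the small subunit. The site of NRF1 (GCGC, any base, then TGCGC), a regulator of nuclear genes for mitochondria, was in 8 of 68 windows (11.8%, against 10.3% of listed protein-coding genes). A GC box (GGGGCGGGG) was in 17 (25%, against 26.4%) and TATAAA in 2 (2.94%, against 6.66%). For NRF1 and the GC box the members' share was thus close to that of listed protein-coding genes. A match of letters does not show that a factor binds there.

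**Figure D1:**
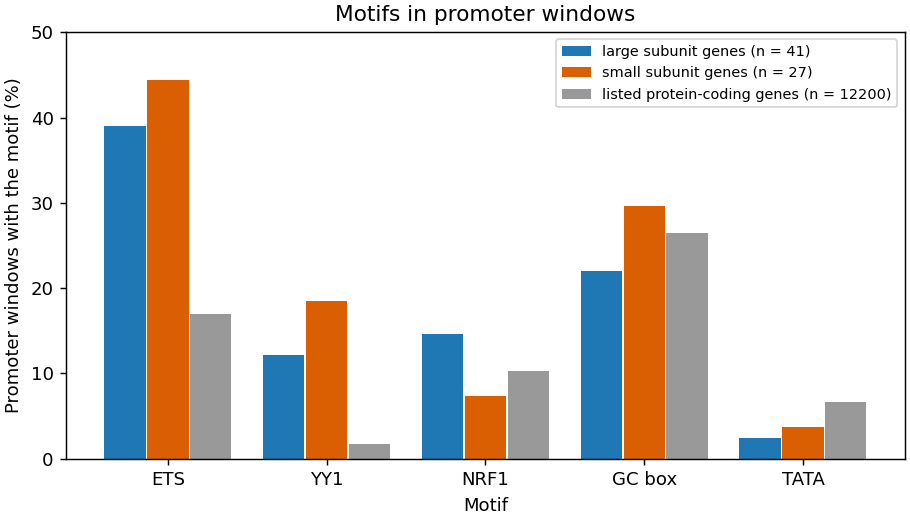
Share of promoter windows with each motif (y axis, percent; x axis, motif) in large subunit genes (blue, n = 41), small subunit genes (orange, n = 27) and listed protein-coding genes (grey, n = 12200). ETS letters were in 39.0% and 44.4% of the windows of the large and small subunit against 17%, and the GC box was in 21.95%, 29.6% and 26.4%.

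The members together held 139211 of the 53217583 mean normalized counts of all listed genes (0.262%), of which 0.169% belonged to the large and 0.0923% to the small subunit. A mean normalized count of at least 1000 was reached by 57 of 77 (74.0%), against 51.3% of listed protein-coding genes. Per kb, 69 of 77 lay above the median of the 15355 listed protein-coding genes (309.9), 42 lay above their percentile 75 and 13 above their percentile 90. The median member stood at percentile 76.9 of those genes per kb and at percentile 60.5 by count. Levels spread from 11.5 per kb (MRPS24) to 5894 (MRPL51), while the middle of the group was narrower, with quartiles at 559 and 1877 around a median of 1005.

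Large subunit genes were higher per kb than small subunit genes. Their medians were 1257 (quartiles 760 and 1984) and 695 (quartiles 445 and 1410) mean normalized counts per kb, a difference of 0.85 on the log2 scale or 1.81-fold. The ranges overlapped widely: 39 of 48 large subunit genes lay above the small subunit median, and 10 of 29 small subunit genes lay above the large subunit median. Large subunit genes were 14 of the 20 highest and 8 of the 20 lowest members, against 48 of 77 in all. The direction depended on the division by length. Before it, the medians were 1696 mean normalized counts in the large and 1805 in the small subunit, a log2 difference of -0.09, and the median transcript lengths were 1195.5 and 1458 bases. This is a description over genes, which are not replicates, and it carries no test.

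**Figure D2:**
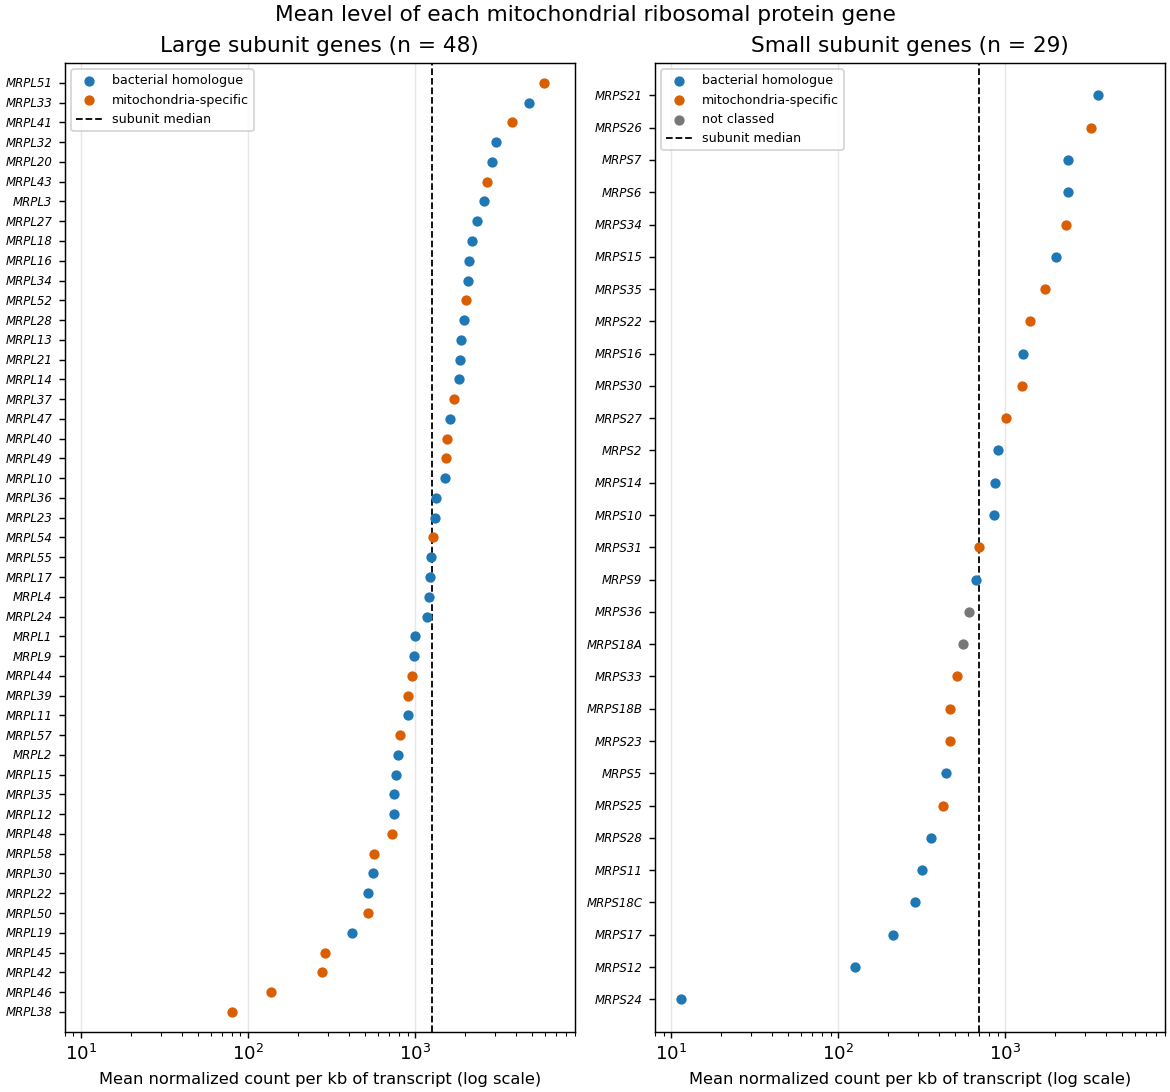
Mean normalized count per kb of transcript (x axis, log scale) of each large (left, n = 48) and small (right, n = 29) subunit gene, coloured by origin of the protein, with the subunit median as a dashed line. The medians were 1257 and 695, and both subunits had genes far under them, down to 80.2 in the large and 11.5 in the small subunit.

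In the large subunit, the highest gene was MRPL51, a mitochondria-specific protein, with 5894 per kb (mean normalized count 5293, the highest of all members). MRPL51 lies on the minus strand at chr12:6491886-6493841. The next were MRPL33 with 4802 per kb and MRPL32 with 3050, relatives of the small bacterial proteins L33 and L32, then MRPL20 with 2884, the relative of the early-binding bacterial protein L20. MRPL41, mitochondria-specific, stood between them with 3806. The 5 highest had short transcripts, from 508 bases (MRPL33) to 898 bases (MRPL51).

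At the lower end of the large subunit stood MRPL38 with 80.2 per kb and MRPL46 with 138, both mitochondria-specific. The mean normalized count was 109 for MRPL38 and 136 for MRPL46. MRPL42, also mitochondria-specific, had 278 per kb although its mean normalized count of 4324 was the third highest of all members, since its reference transcript is 15557 bases long. MRPL45, which sits at the exit of the peptide tunnel, had 289 per kb, and MRPL19, the relative of bacterial L19, had 418 with a transcript of 7825 bases. MRPL42 and MRPL19 were thus low per kb but not by count, and MRPL38 and MRPL46 were low on both scales.

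In the small subunit, MRPS21, the relative of bacterial S21, was highest with 3581 per kb (mean normalized count 3886, the fourth of all members). MRPS21 lies on the plus strand at chr1:150293861-150308979. MRPS26, mitochondria-specific, followed with 3252 per kb. MRPS7, the relative of the S7 protein that organises the head of the subunit, had 2377, and MRPS6, the relative of bacterial S6, had 2374. MRPS34, mitochondria-specific, had 2325. These 5 all lay above percentile 90 of listed protein-coding genes.

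The 5 lowest small subunit genes were all relatives of bacterial proteins, a class that holds 16 of the 29 small subunit genes. MRPS21, MRPS7 and MRPS6 among the 5 highest belong to it too, so the class did not mark low genes. MRPS24, the relative of S3 at the mRNA entry, had 11.5 per kb and a mean normalized count of 7.65, and lies on the minus strand at chr7:43866558-43869893. MRPS12, the relative of S12 at the decoding centre, had 127 per kb (mean normalized count 122). MRPS17, the relative of S17, had 214 per kb, MRPS18C had 287 and MRPS11, the relative of S11, had 317. The level of MRPL38, the next gene up from MRPS24 among all members, was 6.99 times that of MRPS24. This ratio rests on the very low count of MRPS24. Both transcripts also lie mostly inside exons of another gene (94.3% for MRPL38 and 90.9% for MRPS24), as described below.

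The subunit letter does not always give the place of the protein. MRPS30 (1259 per kb) and MRPS18A (559) sit in the large subunit despite their S, and MRPS36 (609) is known as a component of the 2-oxoglutarate dehydrogenase complex. MRPS18A, MRPS18B and MRPS18C are paralogues of the S18 family, and had 559, 467 and 287 per kb, all under the median of the members. In the classes by origin, MRPS18C was counted as the relative of the bacterial protein and MRPS18B as mitochondria-specific by its name in the unified nomenclature. MRPS18A was put in neither class, which was a choice made for these lists and does not come from that nomenclature. With MRPS30 and MRPS18A moved to the large subunit and MRPS36 left out, the large subunit median was 0.69 higher on the log2 scale (50 and 26 genes). Another 5 proteins of the ribosome do not carry an MRP symbol. AURKAIP1 had 5145 per kb, DAP3, a GTP-binding protein of the small subunit, had 2524, CHCHD1 had 2243 and PTCD3 had 665. GADD45GIP1, a large subunit protein, had 1107. With these placed in their subunits as named by symbol, the difference was 0.52 (49 and 33 genes), since 3 of the 4 small subunit proteins among them lay above the large subunit median.

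By origin of the protein, the 46 relatives of bacterial proteins had a median of 1219 per kb and the 29 listed mitochondria-specific proteins a median of 951, a difference of 0.36 on the log2 scale. By count the direction was the other way, with medians of 1628 and 1947 and a difference of -0.26. The difference per kb was 0.71 without members that overlap an exon of another gene (19 and 17 genes left) and 0.17 in members with a count of at least 1000. Overlap was defined more widely there than in the exon sharing described below. MRPS18A and MRPS36 were put in neither class, and MRPL53 was not listed. With MRPS30 counted in the large subunit, where its protein sits, the 30 bacterial relatives of that subunit had a median of 1322 and the 19 mitochondria-specific proteins one of 951. In the small subunit the 16 bacterial relatives had a median of 766 and the 10 mitochondria-specific proteins 850. The order of the classes was thus opposite in the subunits per kb. By count, with the classes as set here, it was the same in both. The medians were 1710 for bacterial relatives and 1734 for mitochondria-specific proteins in the large subunit, and 1394 and 2250 in the small subunit. The large subunit medians by count were close and left out MRPS18A, a large subunit protein with a count of 650. Whether their order holds with MRPS18A in a class was not tested. None of these differences was tested.

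Other genes of mitochondrial translation, taken from lists, were lower per kb than the ribosomal proteins. The 12 translation factors had a median of 518, from TSFM, the elongation factor Ts, with 14.1 to TUFM, the elongation factor Tu, with 5315. The mitochondrial tRNA synthetases and amidotransferase subunits, 18 of 20 listed, had a median of 430, from FARS2 (phenylalanine) with 213 to IARS2 (isoleucine) with 2312. SARS2 and VARS2 were not listed. The 23 assembly factors of the ribosome had a median of 352, from the rRNA methyltransferase MRM2 with 23.8 to NGRN with 3274. By count the gaps were smaller, with medians of 1174, 1593 and 1007 for the factors, synthetases and assembly factors against 1734 for the members, whose median transcript of 1260 bases was shorter than those of the lists (2360, 2757 and 2317 bases).

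Genes of the cytosolic ribosome and the mRNAs that the mitochondrial ribosome translates were far higher. The 82 listed cytosolic ribosomal protein genes had a median of 23116 per kb, 22.99 times that of the mitochondrial ones. In the cytosol the small subunit was the higher, with medians of 29972 per kb in 31 small and 20853 in 51 large subunit genes, whereas the mitochondrial small subunit was the lower. By count this contrast was not seen with these lists. The small subunit median was slightly the higher in both ribosomes (23825 and 23400 in the cytosolic one, 1805 and 1696 in the mitochondrial one). The cytosolic large subunit list includes the paralogues RPL3L, RPL39L, RPL22L1, RPL26L1 and RPL7L1, with counts of 18.3, 188, 618, 1047 and 7303. The small subunit list includes RPS27L with 10358. All of these lie under the median count of their subunit. Whether the cytosolic order by count holds without them was not tested. Low counts were not limited to these paralogues, since RPL17 had 303, RPL36A 256 and RPS10 584. Exon overlap was not examined for the cytosolic lists. The 13 protein-coding genes of mitochondrial DNA had a median of 97972 per kb, from MT-ATP8 with 31051 to MT-CO1 with 182329. All 13 exceeded MRPL51, the highest member. Overlap among these 13 genes was not examined here, and MT-ATP8 is only 207 bases long.

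**Figure D3:**
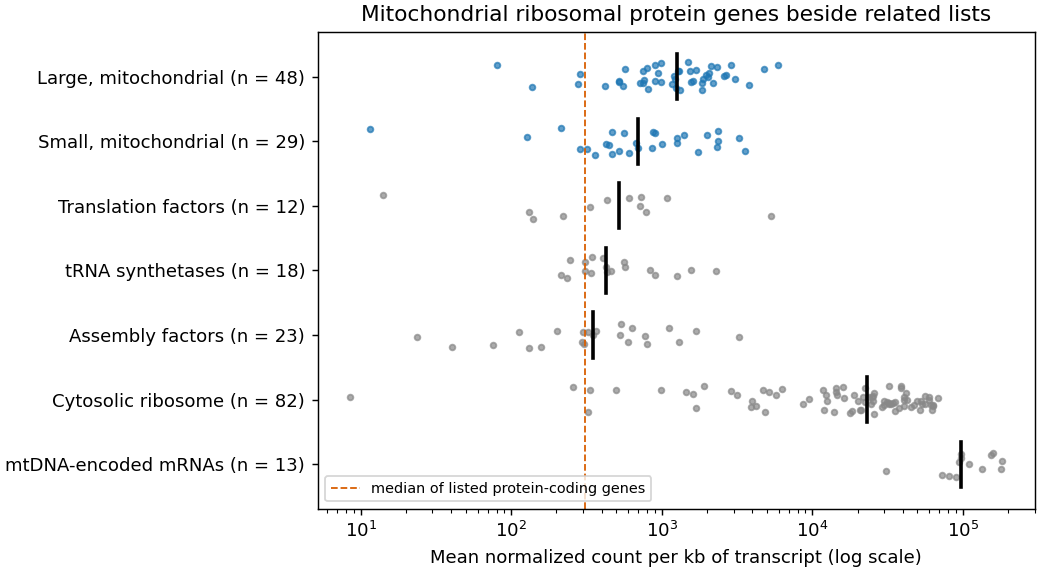
Mean normalized count per kb of transcript (x axis, log scale) of each gene in 7 lists (rows; points are genes, spread vertically for display), with the list median as a black bar and the median of listed protein-coding genes (309.9) as a dashed line. The large (1257) and small (695) subunit medians lie above those of translation factors (518), tRNA synthetases (430) and assembly factors (352), and under those of the cytosolic ribosome (23116) and of the mitochondrial mRNAs (97972).

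By count rather than per kb, the order of the members was partly another. The highest were MRPL51 with 5293, MRPL3, the relative of bacterial L3, with 4435, MRPL42 with 4324, MRPS21 with 3886 and MRPS26 with 3304. Across the 77 genes, Spearman's rho with transcript length was 0.32 for the mean normalized count and -0.48 for the count per kb. These points share their libraries, and the length enters the second measure by construction.

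**Figure D4:**
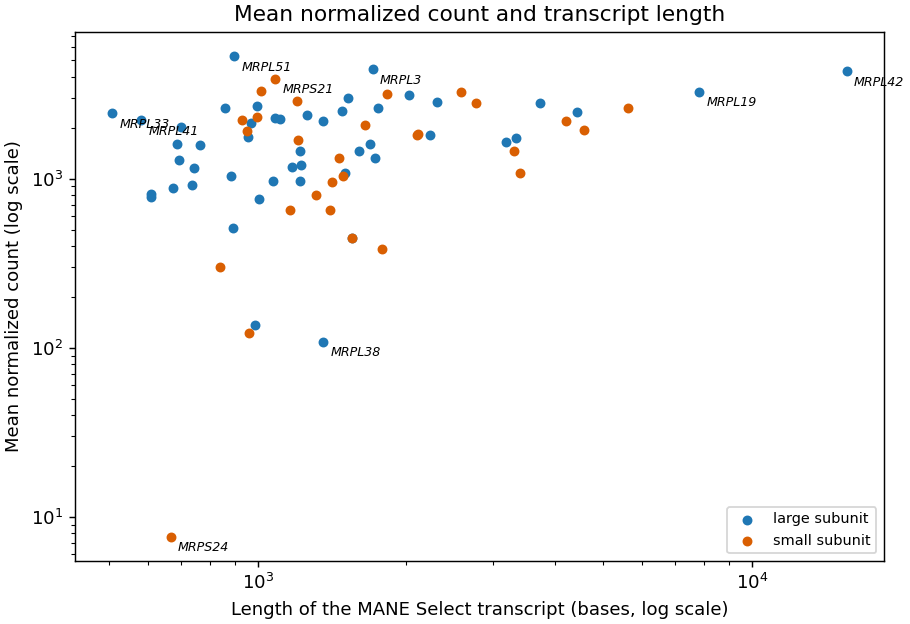
Mean normalized count (y axis, log scale) against the length of the MANE Select transcript (x axis, bases, log scale) for large (blue) and small (orange) subunit genes, each point a gene. MRPL42, at 15557 bases, had the third highest count (4324), and MRPS24 lies under all others at 7.65.

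Several low members share exons with other genes. In GENCODE v44, 16 of the 77 genes (20.8%) had at least 25% of their transcript inside exons of another gene, against 10.5% of listed protein-coding genes. Any exon overlap was as common as elsewhere, in 30 of 77 members (39.0%) against 38.6%. These 16 were 6 of 48 large and 10 of 29 small subunit genes. Their median was 502 per kb and that of the other 61 members 1259. Of the 10 lowest members 6 were among the 16, and of the 10 highest none. The aligner's gene counting leaves out a read that overlaps exons of several genes. Whether the older annotation used by the authors held each of these overlaps, and what part they have in the levels, was not tested.

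In 8 of the 16 the other gene was a protein-coding one on the same strand, mostly an annotated gene without a symbol. The share covered by that gene was 97.1% for MRPS5, 94.3% for MRPL38 and 90.9% for MRPS24, which is covered by URGCP-MRPS24. It was 73.4% for MRPL46, 69.5% for MRPL12, 56.2% for MRPS28, 52.1% for MRPL2 and 26.4% for MRPS17. These 8 had a median of 286 per kb, and 5 of them were among the 10 lowest members. None of the 8 covering genes (0 of 8) was found among the listed genes, which were read by symbol. No share over comparable covering genes was computed, and whether the authors' annotation held these 8 was not tested.

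The other 8 were covered by genes on the opposite strand or by non-coding genes. MRPS18C lay to 83.6% in ABRAXAS1 and MRPS18A to 60.6% in RSPH9, both on the opposite strand. MRPS34 lay to 32.6% in EME2 and MRPS22 to 26.6% in COPB2, also on the opposite strand. MRPL4 (39.7%), MRPL9 (43.7%), MRPS25 (44.1%) and MRPS6 (33.1%) had their largest overlap with a long non-coding RNA gene. The library kit named in the study is the version that does not mark strand, so reads of a gene and its partner on the opposite strand cannot be told apart where they overlap. Coverage did not go with a low level in each of these, since MRPS6 and MRPS34 were among the 5 highest small subunit genes.

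A smaller overlap, under 25% of the transcript, was found in another 14 members: MRPL3, MRPL19, MRPL20, MRPL30, MRPL42, MRPL43, MRPL44, MRPL47, MRPL49, MRPS2, MRPS7, MRPS9, MRPS11 and MRPS16. MRPS12, the third lowest member, had no covered base. Without the 16 covered genes the large subunit median remained the higher by 0.70 on the log2 scale (1418 per kb over 42 genes and 873 over 19).

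**Figure D5:**
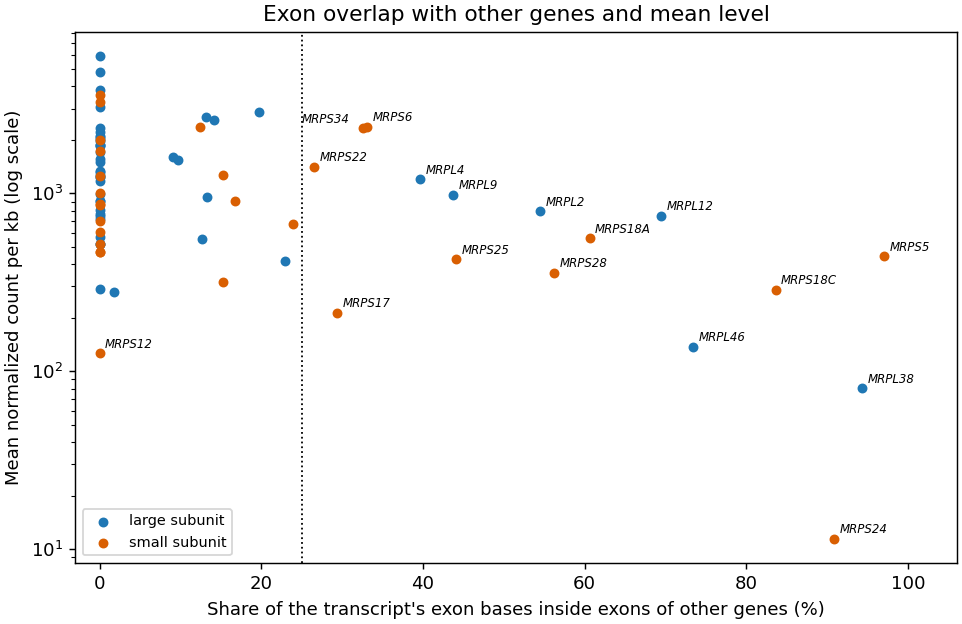
Mean normalized count per kb (y axis, log scale) against the share of the transcript's exon bases inside exons of other genes (x axis, percent) for large (blue) and small (orange) subunit genes. The dotted line marks 25%; MRPL38, MRPS24 and MRPL46 are low with 94.3%, 90.9% and 73.4% covered, while MRPS12 is low with none.

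Copies elsewhere in the genome are another limit. The annotation names 80 pseudogenes of 35 members, from which reads may not be told apart, and the levels of those 35 are uncertain to that extent. Their median was 793 per kb and that of the 42 members without a named pseudogene 1236. By count the order was the other way, with medians of 1734 and 1685, and the median transcript lengths were 1550 and 1078.5 bases. MRPS21 had the most, 8. Of the pseudogenes only MRPS31P5 was listed, with a mean normalized count of 44.6, which is 4.31% of that of MRPS31.

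The members lay on 21 chromosomes, at most 8 on any of them (chromosomes 1 and 17), followed by 7 each on chromosomes 2 and 11. A start facing that of another protein-coding gene, with the other start at most 1000 bases upstream or 300 bases inside, was found in 26 of 77 (33.8%), against 11.6% of listed protein-coding genes. It was found in 19 of 48 large and 7 of 29 small subunit genes. MRPL46 and MRPS11 face each other with starts 320 bases apart and had 138 and 317 per kb. MRPS12 faces SARS2, the mitochondrial serine-tRNA synthetase, at 181 bases. MRPL43 faces TWNK, the mitochondrial DNA helicase, at 46 bases, with 2678 per kb for MRPL43 and 546 for TWNK.

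In the 25 pairs with both genes listed, the partner was lower per kb in 20 (80%). These 25 members stood on average at percentile 77.5 of listed protein-coding genes, so a similar share of all such genes lay under them. Spearman's rho between the levels was 0.08, a description over pairs that share libraries and that count MRPL46 and MRPS11 in both directions. MRPL49 faces FAU, which encodes a cytosolic ribosomal protein, and had 1536 per kb against 20787 for FAU. Members with a facing gene had a median of 1520 per kb and the other 51 a median of 951, while by count the medians were 1788 and 1658.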

How the data were processed

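RNA was sequenced from 18 samples in 6 groups of 3. Per the paper's methods and the submitters' processing notes, the authors aligned reads with STAR 2.7.2d to GRCh38 with GENCODE v32, counted reads per gene with STAR and fitted DESeq2 1.34.0. The deposited table gives for each gene and time a signal, the mean normalized count, which the authors took across every sample once libraries were scaled. For each gene it was the same at every time it was listed (largest relative gap 4.89e-07). The other 5 numeric columns hold the authors' own comparisons of LN411 with FN (log2 fold change, its error, the statistic, p-value and adjusted p-value) and were not used. Depth per sample and values per sample were not analysed here, so no error, interval or test is given.

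Here (Python 3.11.15, pandas 2.3.3, numpy 2.4.6, matplotlib 3.10.9), genes were matched by identifier to GENCODE v44, which held 21861 of the 21944. The mean was divided by the length of the MANE Select transcript, else of the canonical or longest one. No filter or pseudocount was used. Positions are GENCODE v44 and sequences RefSeq, both GRCh38. The code for differences of medians was tested on simulated levels, multiplied and then divided by the same transcript lengths. That check says nothing about the choice of length. Named genes are the 5 highest and 5 lowest per kb in each subunit, the MRPS18 paralogues, members placed elsewhere than their symbol says, members with exon overlap or not listed at every time, ribosomal proteins outside the naming pattern, and the extremes of the other lists. Genes facing a member, MRPL3, MRPS31P5 and the low cytosolic genes and paralogues were added after their values were seen. A further marker gene is not reported here. Members and lists were chosen with earlier results of these data known. Alternatives were other transcript lengths, no division by length, subsets of members, other subunit assignments and other totals.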

Additional observations from a re-analysis of the deposited data

How the results depend on the processing

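The difference between the large and the small subunit (0.85 on the log2 scale) kept its direction under each alternative that divided by length. It was 0.78 with the longest transcript, 0.64 with the union of exons, 0.68 without any exon overlap (25 and 12 genes), 0.47 in genes whose mean normalized count reached 1000 (37 and 20), 0.69 with subunits from the structure and 0.52 with the proteins outside the naming pattern. Without the members covered to at least 25%, an alternative chosen after seeing the data, it was 0.70. Not divided by length, it was reversed (-0.090). The difference between bacterial relatives and mitochondria-specific proteins (0.36) was 0.35 with the longest transcript, 0.30 with the union of exons, 0.71 without exon overlap (19 and 17 genes), 0.17 at a count of at least 1000 and 0.44 without the covered members, and reversed to -0.26 when not divided by length. In the reversals the alternative differs from the value reported only by the division by length. The members' share of all mean normalized counts (0.262%) was 0.270% without the mitochondrial chromosome and 0.262% over genes listed at all 3 times. No paired analysis was possible because values per sample were not analysed here, and leaving out single samples was not run for the same reason.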
